A study of Mus musculus and other sequences with 2 samples.

Results

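The miR-125 and miR-99/100 families were measured by 6 of the 750 miRNA assays on a TaqMan RT-qPCR array of mouse blastocyst culture media. The assays were taken by name, as every mouse assay for miR-125a, miR-125b, miR-99a, miR-99b or miR-100 with no # at the end of its name, where # marks the minor arm of a hairpin. They were mmu-miR-125a-5p, mmu-miR-125a-3p, mmu-miR-125b, mmu-miR-99a, mmu-miR-99b and mmu-miR-100, each in 1 well of card A. Conditioned media came from 25 CD1 embryos, which the labels call blastocysts and the methods call compacted or cavitating morulae at the start, kept for 17 h in 8 μL from 99 to 116 h after hCG at 37°C under 5% O2 and 5% CO2. The embryos came from superovulated females, of 3 wk in the labels and up to a week older in the methods, mated with CD1 males. Blank media was a droplet without embryos, cultured in the same way for 17 h. Both were KSOM free of BSA with 0.1% of a substitute that the labels name polyvinylacetate and the methods polyvinyl alcohol. There was 1 sample of each, so that no test between media was possible and the values below are descriptions of those 2 samples. Conditioned media came from a single droplet with all 25 embryos, in which release by more of the embryos and more release per embryo cannot be told apart.

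A miRNA is cut from a hairpin precursor, each arm of which can yield a mature strand, and it recognises target transcripts mainly through its seed near the 5′ end. miR-125 is the vertebrate counterpart of lin-4, a regulator of developmental timing in worms, and like let-7 it is known for its role in development and differentiation. The miR-99/100 family is known for targeting the mTOR pathway. In mammals, genes of the miR-99/100, let-7 and miR-125 families lie together, in that order, at several places in the genome.

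The mature sequences of the member assays are shown because their seeds divide them into families and because members of a family differ by few bases. All 6 member assays were matched to a mouse mature sequence in RefSeq (GRCm38.p6), and an assay named without an arm was taken as the 5p arm. Capitals mark the seed, bases 2 to 8. The miR-125 sequences are shown with miR-351-5p, a miRNA of another locus with the same seed.
miR-125a-5p: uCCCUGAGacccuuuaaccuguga
miR-125b-5p: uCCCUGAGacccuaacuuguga
miR-351-5p: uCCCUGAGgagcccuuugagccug
The miR-99/100 sequences share a different seed.
miR-99a-5p: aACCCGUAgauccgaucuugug
miR-99b-5p: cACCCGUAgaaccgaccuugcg
miR-100-5p: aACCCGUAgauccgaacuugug
The 3p arm of the miR-125a hairpin, which had an assay of its own, shares neither seed.
miR-125a-3p: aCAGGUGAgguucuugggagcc

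In the RefSeq table, 5 of 1679 mature mouse miRNAs carry the seed CCCUGAG, of which miR-6367 and miR-6394 had no assay on the cards. The seed ACCCGUA is carried by miR-99a-5p, miR-99b-5p and miR-100-5p and by no other mature miRNA of that table. Mature miR-125a-5p has 24 bases and miR-125b-5p has 22, and the first 13 are the same. miR-99a-5p and miR-100-5p differ by 1 base, U16A, counted from 1 at the 5′ end of miR-99a-5p. miR-99b-5p differs from miR-99a-5p by A1C, U11A, U16C and U21C, all outside the seed. The single gene of miR-125a-5p places it at chr17:17830817-17830840, that of miR-99b-5p at chr17:17830194-17830215, that of miR-99a-5p at chr16:77598940-77598961 and that of miR-100-5p at chr9:41531437-41531458, all on the plus strand of GRCm38.p6. Mature miR-125b-5p is encoded identically by Mir125b-1 at chr9:41581940-41581961 and by Mir125b-2 at chr16:77646279-77646300, so that its assay cannot tell the genes apart.

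Conditioned media held signal for miR-125a-5p, miR-125b and miR-99a, and the blank sample had no Ct below 35 for any of the 6 assays. The Ct counts the PCR cycles before fluorescence reached a threshold, so that earlier values mean more template and each cycle is about a doubling. A Ct below 35 was called detected. How high the signal rose, a further filter in the study, was not analysed here. With that filter the study detected fewer sequences in each sample than the Ct limit alone gives here. The shares of assays detected in each sample below are therefore higher than under the study's calls, above all in blank media. Its short list, of sequences found with embryos and with little or no signal in the blank, holds miR-125a-5p and miR-125b-5p and not miR-99a. In conditioned media 3 of the 6 members were detected, beside 37.3% of all 750 miRNA assays and 42.1% of the 330 mouse major-arm assays of card A. In blank media 0 of the 6 were detected, beside 29.1% and 34.5%. Detection in conditioned media only was found for 3 of the 6, beside 13.9% of all assays and 15.2% of the mouse major-arm assays of card A. The other 3 members were undetermined in both samples, as were 52.3% of all assays and 45.5% of the mouse major-arm assays of card A. With 6 members, these shares differ from the background by few wells, and no test was run.

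**Figure D1:**
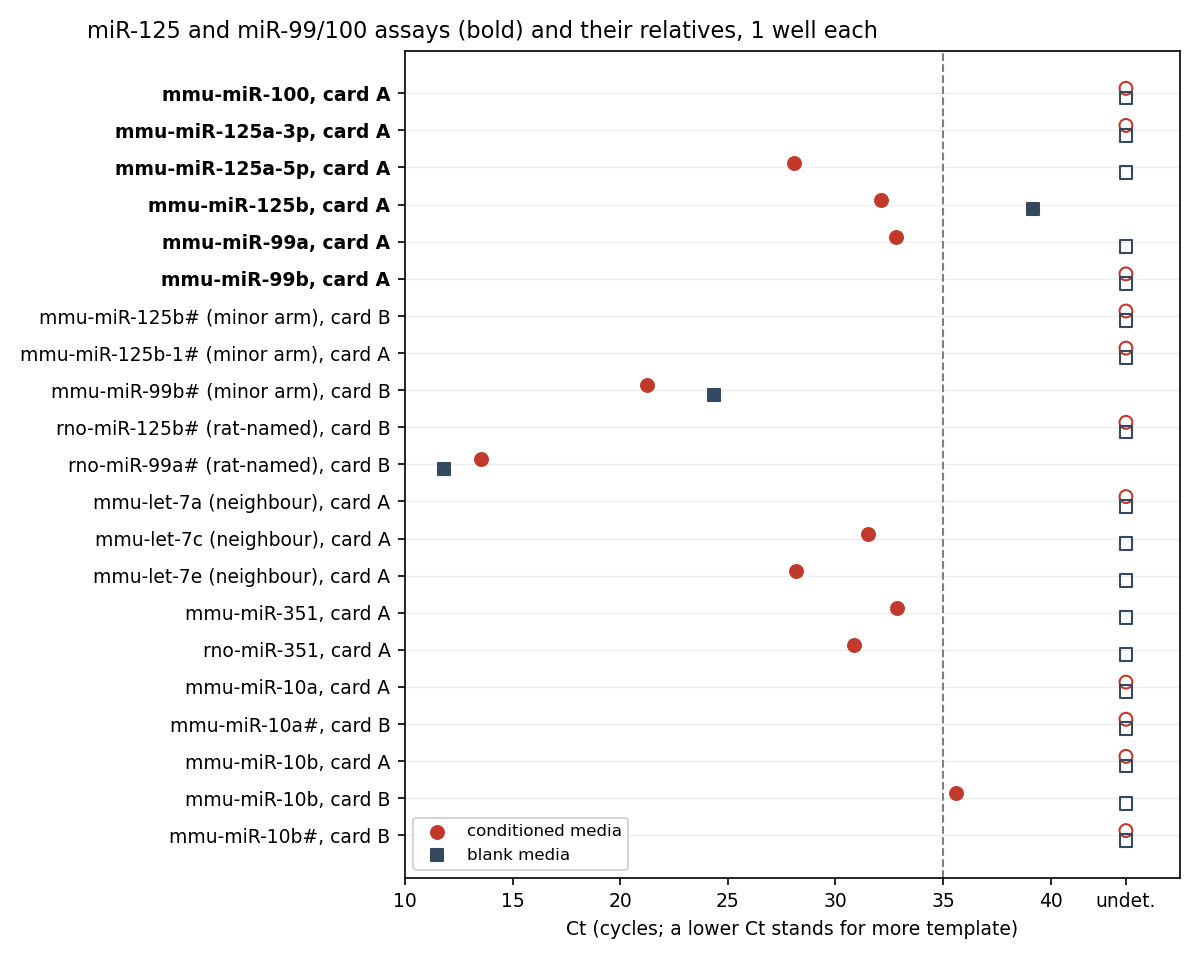
Ct in cycles of each member assay (bold names) and of related assays, in conditioned media (circles) and blank media (squares), 1 well each, with open symbols at the right for undetermined wells and a dashed line at a Ct of 35. Among the members, filled circles left of the line stand for miR-125a-5p, miR-125b and miR-99a, and the single filled square is miR-125b at 39.2.

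mmu-miR-125a-5p crossed the threshold at a Ct of 28.07 with embryos and stayed undetermined in the blank. It was the earliest of the members, 11.9 cycles before the latest Ct of any miRNA well on the cards, 39.99. Among the 280 assays detected in conditioned media it ranked 188 by Ct, so that 66.8% had an earlier Ct. Among the 104 assays detected in conditioned media only, whose Ct ran from 5.51 to 34.9 with a median of 28.4, it ranked 50. Its place by Ct alone was thus near the middle of the sequences seen with embryos only, and in the later part of all detected sequences. Without the study's filter on signal height, the ranked assays are more than the study called detected. Of those ranked ahead of it among the 280, 78 were earlier than any U6 control well, the earliest at 18.99. Blank media held 78 such assays too. Whether Ct values this early stand for template was not tested, and the ranks of all members count them.

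mmu-miR-125b had a Ct of 32.10 with embryos and of 39.19 in the blank. It was the only member with a Ct in both samples, and the blank Ct lay beyond the limit of 35. The latest Ct of any miRNA well in the blank was 39.335. The study kept miR-125b on its list of sequences with little or no blank signal. Each difference given for miR-125b, with any reference, thus rests on 1 blank well not counted as detected. The difference between media, conditioned minus blank, was -7.09 cycles. It was more than 5 cycles earlier with embryos, as were 12.4% of the 193 miRNA assays with a Ct in both samples. U6, a small nuclear RNA spotted in 4 wells of each card, had a mean difference of -4.08 cycles on card A, where the SD of its wells was 0.68 cycles in conditioned media and 3.22 in blank media. Relative to the mean of U6 the difference of miR-125b was -3.01 cycles, no longer past 5. It was -1.99 cycles relative to the median of U6, and -1.75 cycles without 1 U6 well of each sample that stood apart, at 19.89 with embryos and 20.20 in the blank. The direction was the same with each reference tried. U6 was itself earlier with embryos, whereas card A assays detected in both samples had a median difference of -0.115 cycles. Values relative to U6 thus include its own change and are no comparison at equal input.

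mmu-miR-99a had a Ct of 32.81 with embryos and none in the blank. It ranked 257 of 280, with 91.4% of detected assays earlier, and miR-125b ranked 247 with 87.9% earlier. Both were late values, in a range from 32 to below 35 that held 34 assays of conditioned media and 22 of blank media. mmu-miR-99b and mmu-miR-100, the other sequences with the seed ACCCGUA, were undetermined in both samples. For miR-99a and miR-100, which differ by 1 base, the wells therefore read 32.81 and undetermined in the same sample. How far an assay amplifies the closest relative of its target is not given in the sources used here and was not tested.

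**Figure D2:**
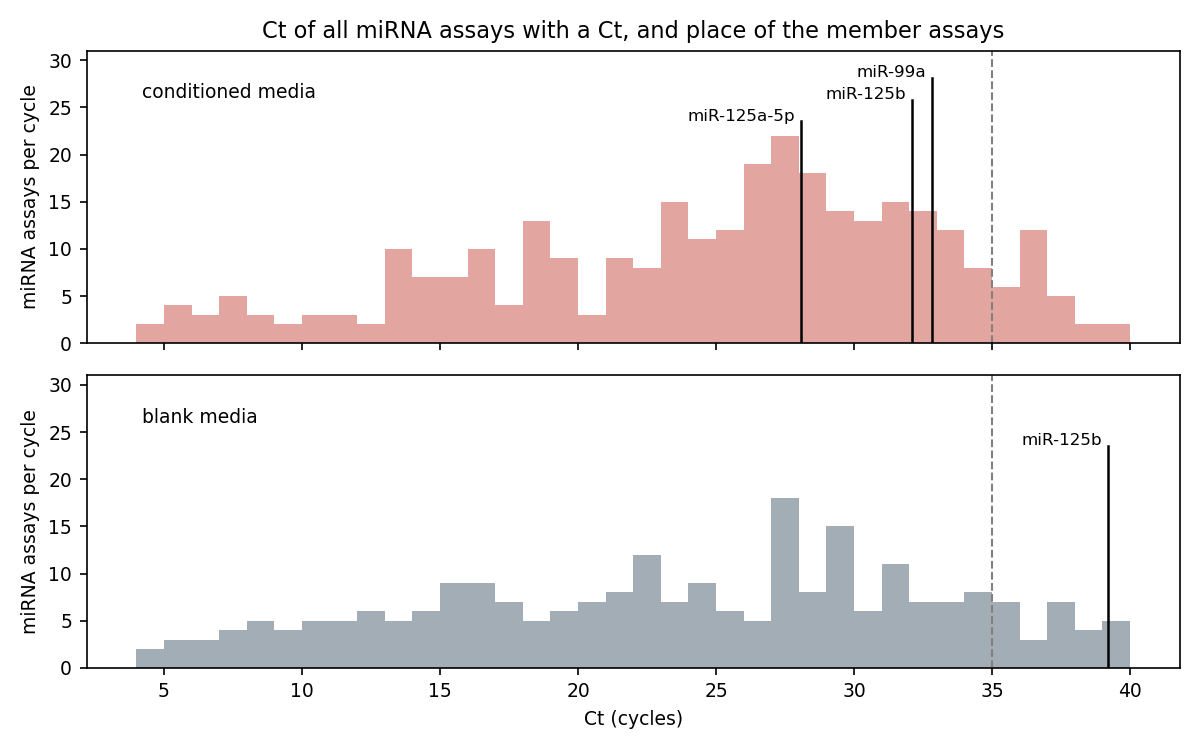
Number of miRNA assays per cycle of Ct (histograms, 1-cycle bins) in conditioned and blank media, with vertical lines at the Ct of each member and a dashed line at 35; line heights have no meaning. The 3 detected members lie at 28.07, 32.10 and 32.81 in conditioned media, and miR-125b lies beyond the limit in blank media.

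In order of Ct in conditioned media, the members ran from miR-125a-5p through miR-125b to miR-99a, followed by the 3 undetermined assays, which have no order. The gap between miR-125a-5p and miR-125b was 4.03 cycles, and that between miR-125b and miR-99a was 0.71 cycles. The SD of the 4 U6 wells of card A in conditioned media was 0.68 cycles, which rested on 1 well at 19.89 beside 3 wells between 21.14 and 21.31. On the cards 26 names were covered by a pair of assays, and pairs detected in conditioned media differed by 1.25 to 7.42 cycles over 6 such names, with a median of 3.74. Without that well the SD was 0.09 cycles. The gap of 0.71 cycles was thus close to the SD of all 4 wells and larger than that of the 3, and below the smallest difference between detected assays of 1 name. The gap of 4.03 cycles lay within the range of those differences. U6 wells had much earlier Ct values than miR-125b and miR-99a, so that their SD does not give the spread of wells at that later Ct. Assays also differ in efficiency, so that the order of Ct is not an order of amounts. Of the 26 names, 6 had both assays detected in conditioned media, 10 had 1 of the 2 and 10 had neither, which bears on how far a single well shows that a sequence was present or not. For miR-223, miR-292-3p and miR-10b the 2 assays were on different cards, which had separate reverse transcription and pre-amplification, whereas all 6 members are on card A. What else sets the 2 assays of a name apart was not analysed.

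By seed, CCCUGAG was detected in conditioned media only for each of the 3 mouse assays that carry it, and ACCCGUA for 1 of 3, beside 15.2% of the mouse major-arm assays of card A. At a Ct limit of 32, an alternative added after seeing the data, 1 of 3 and 0 of 3 were left, beside 14.2%. The third CCCUGAG sequence was miR-351, with a Ct of 32.87 in the presence of embryos and none in the blank. It lies on chromosome X, away from the miR-125 genes, and shares the first 8 bases of miR-125a-5p and miR-125b-5p. A rat-named assay of miR-351 reached a Ct of 30.85 and was again undetermined in the blank. The study's short list holds miR-351 at the Ct of this rat-named assay, not at that of the mouse assay. The mouse and rat-named assays differed by 2.02 cycles, and miR-125b lay between them, 0.77 cycles earlier than the mouse assay. None of these gaps exceeded the spread between assays of 1 name.

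The genes of the members lie at 3 loci, each with a let-7 gene between a miR-99/100 gene and a miR-125 gene, all on the plus strand. let-7 sequences are shown because they are the neighbours of the members, and capitals again mark the seed.
let-7e-5p: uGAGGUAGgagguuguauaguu
let-7c-5p: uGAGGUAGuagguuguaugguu
let-7a-5p: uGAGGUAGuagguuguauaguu
At the locus of Mir99b, Mirlet7e and Mir125a on chromosome 17, within the gene Spaca6, the mature sequences of let-7e and miR-125a-5p start 172 and 623 bases after that of miR-99b. The Ct in conditioned media was 28.18 for let-7e and 28.07 for miR-125a-5p, 0.11 cycles apart, and miR-99b was undetermined. All of them were undetermined in blank media. The study's short list holds miR-125a-5p and not let-7e.

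At the locus of Mir99a, Mirlet7c-1 and Mir125b-2 on chromosome 16, let-7c starts 732 bases and miR-125b 47339 bases after miR-99a. All 3 were detected in conditioned media, let-7c with a Ct of 31.51, miR-125b with 32.10 and miR-99a with 32.81, a spread of 1.30 cycles. None was detected in blank media. Of these, the study's short list, filtered on signal height too, holds miR-125b and neither let-7c nor miR-99a. The earliest of the 3 was thus 3.33 cycles later than let-7e of the chromosome 17 locus. At the locus of Mir100, Mirlet7a-2 and Mir125b-1 on chromosome 9, within the non-coding RNA gene Mir100hg, let-7a starts 5295 bases and miR-125b 50503 bases after miR-100. Here miR-100 and let-7a were undetermined in both samples, and the only Ct was that of miR-125b, which is also encoded on chromosome 16.

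By locus, 2 of 3, 3 of 3 and 1 of 3 mature sequences were detected in conditioned media only, where the well of miR-125b counts at both of its loci, beside the same 15.2% of the mouse major-arm assays of card A. At a Ct limit of 32 the counts were 2, 1 and 0 of 3, since miR-125b and miR-99a were then no longer detected. let-7c and let-7a are likewise encoded by 2 genes each in the RefSeq table, and let-7e, miR-125a-5p, miR-99a, miR-99b and miR-100 by 1. let-7a and let-7c differ by A19G and let-7a and let-7e by U9G, counted from the 5′ end of let-7a. No primary transcript was measured, and that genes lie together does not show that the mature miRNAs came from the same transcript.

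**Figure D3:**
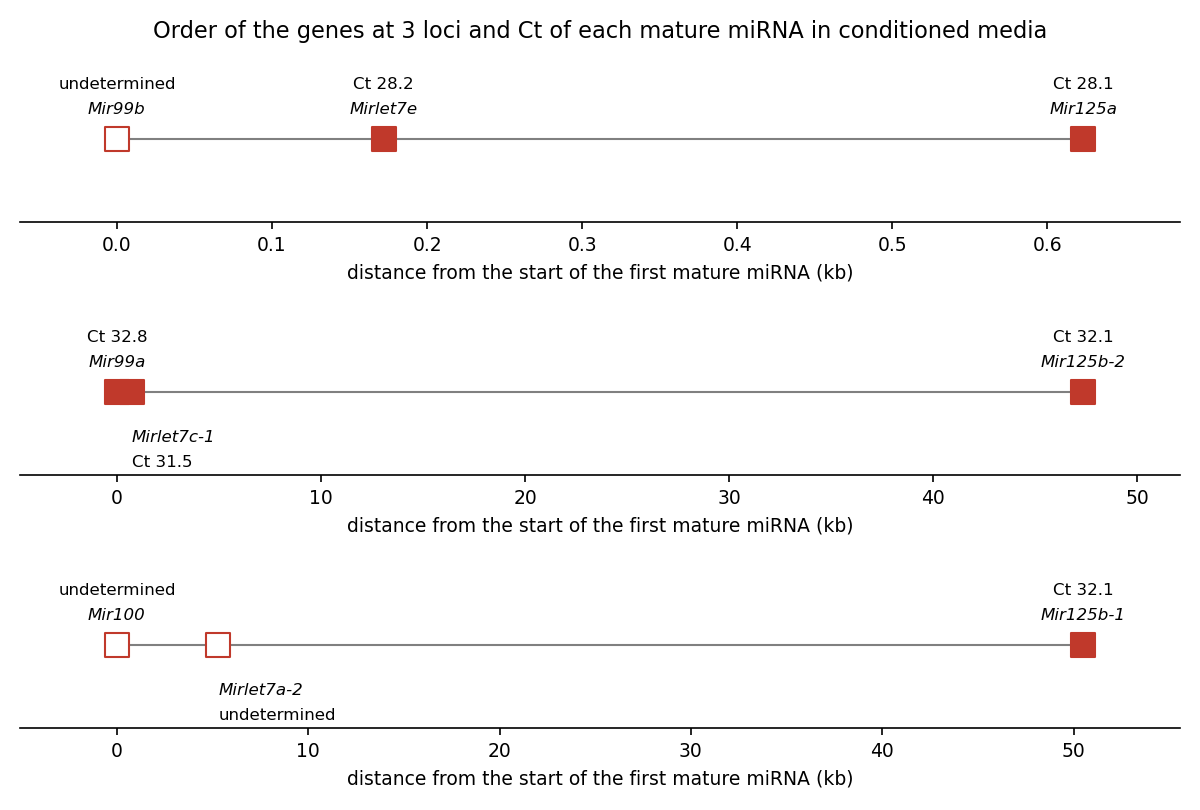
Order of the genes at the loci of chromosomes 17, 16 and 9 (top to bottom), by distance in kb from the start of the first mature miRNA, with a scale of its own for each locus. Filled squares had a Ct below 35 in conditioned media, given above or below the gene, and open squares were undetermined; the single assay of miR-125b stands at both Mir125b-2 and Mir125b-1.

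Assays of the minor arms had a Ct below 35 in both samples or none in either. Of 3 mouse minor-arm assays, miR-125b# and miR-125b-1# were undetermined in both samples, as was the 3p arm of the miR-125a hairpin among the members. The third, miR-99b#, was on card B and amplified in both samples, at 21.25 with embryos and 24.35 in the blank. It is the 3p arm of the miR-99b hairpin, shown here because its 5p arm was undetermined.
miR-99b-3p: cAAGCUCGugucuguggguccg
This was the earliest Ct of any mouse assay of these hairpins, and 93 was its rank among the 280. Its difference between media was -3.10 cycles, under the limit of 5, and 46.6% of the 88 card B assays with a Ct in both samples were earlier with embryos. The mean difference of U6 on card B was -7.07 cycles. Relative to U6 the difference of miR-99b# turned to 3.97 cycles, and centred on the median difference of card B it was -3.35 cycles, so that its direction depended on the reference. U6 was earlier with embryos also on card B, where the median difference of assays detected in both samples was 0.25 cycles. Values relative to U6 on this card include that change of U6.

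Of 2 rat-named minor-arm assays, rno-miR-125b# was undetermined in both samples and rno-miR-99a# read 13.52 with embryos and 11.81 without. The latter was earlier than any U6 well, of which the earliest was 18.99, and such early Ct values were found for 78 miRNA assays in conditioned media and 78 in blank media. Whether Ct values this early in media without embryos stand for template was not tested, and signal height was not analysed. It was later in conditioned media by 1.71 cycles, and by 8.78 cycles relative to U6. Each minor-arm assay with a Ct had one below 35 in blank media, and no major-arm member had. Those minor-arm assays, miR-99b# and rno-miR-99a#, were on card B and all members on card A. Arm and card cannot be told apart in this contrast. All 3 minor arms of the neighbouring genes, let-7a#, let-7c-1# and let-7e#, were undetermined in both samples.

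**Figure D4:**
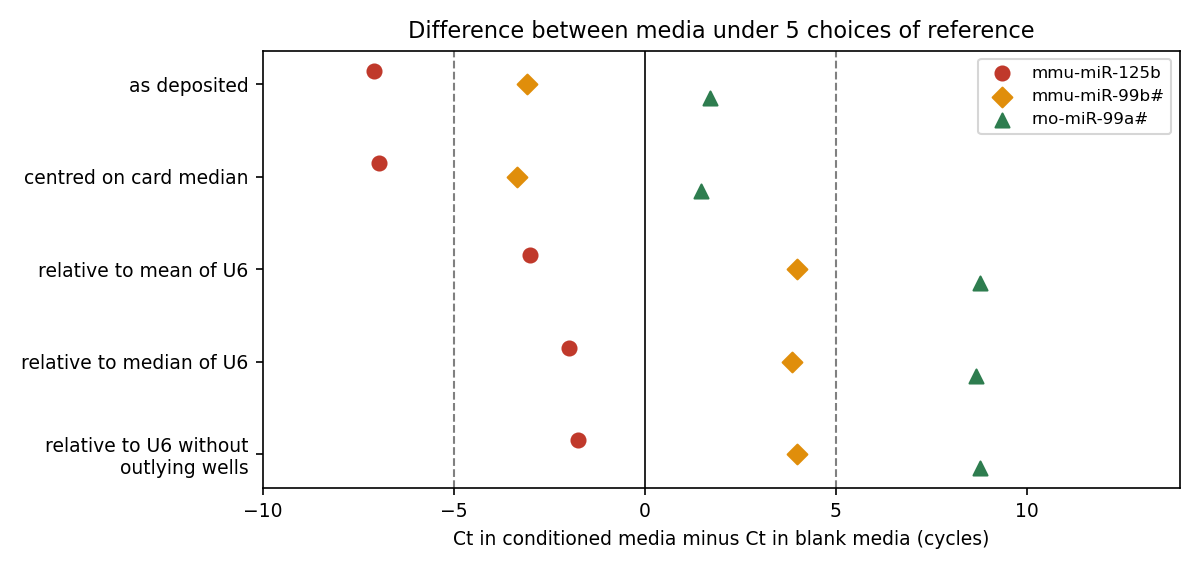
Ct in conditioned media minus Ct in blank media, in cycles, of the 3 member and minor-arm assays with a Ct in both samples, as deposited and under 4 references, with dashed lines at 5 cycles in either direction; values left of 0 are earlier in conditioned media. miR-125b stayed left of 0 throughout, miR-99b# crossed from -3.10 to 3.97 and rno-miR-99a# moved from 1.71 to 8.78.

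For each detected member, the 3 other mouse major-arm assays of card A most like it were taken by the smallest summed difference of Ct over the 2 samples, among assays determined or undetermined in the same samples. Those nearest to miR-125a-5p were miR-465b-5p with a Ct of 28.06 in conditioned media, let-7e with 28.18 and miR-19a with 28.22, among 52 candidates. Those nearest to miR-99a were miR-351 with 32.87, miR-467a with 32.67 and miR-494 with 32.51. miR-125b had no close match among 98 candidates, the nearest being miR-130b, with 33.35 in conditioned media and 37.72 in blank media. After it came miR-331-5p, with 33.64 and 37.65, and miR-141, with 36.58 and 38.57. Likeness in 2 wells describes these samples only.

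The labelled source was checked with miRNAs of other lists. Of 10 mouse major-arm assays for miR-290, miR-291a, miR-292, miR-293, miR-294 and miR-295, which mark pluripotent embryo cells, 8 were detected in conditioned media, at a Ct from 19.6 to 29.9, and none in blank media. Of 5 assays for the blood cell sequences miR-451, miR-144, miR-486 and miR-223, 3 were detected in conditioned media, from 27.4 to 31.4, and 3 in blank media, from 23.3 to 31.7, with miR-451 and miR-144 undetermined in both. Of 3 assays for the spermatozoan sequences miR-34b and miR-34c, 2 were detected in conditioned media, miR-34b-3p at 26.1 and miR-34c at 27.9, and miR-34b-3p also in blank media at 34.8. Whether spermatozoa or blood contributed to the signal of the members was not tested.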

How the data were processed

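Media was lysed without RNA extraction, reverse transcribed and pre-amplified for 12 cycles, and run on a TaqMan rodent array of 2 cards. The authors deposited unnormalized Ct values, which run on an inverted log2 scale, and marked wells without one as undetermined. Their table of fold changes, a linear ratio, was not used. Of 768 wells per sample, 18 held controls. With 1 sample per condition there was no test. Spread came from U6 wells and from names with 2 assays. A Ct below 35 was detected, and an undetermined Ct was not. The members and lists were chosen with earlier results of these data known. Named were the members, their minor arms and rat-named assays, let-7a, let-7c and let-7e, miR-351, miR-10, U6 and other controls, and the 3 assays most like each detected member. Alternatives were Ct limits of 32 and 38 and any Ct, other assay sets, other references and other rankings. Sequences and gene order came from RefSeq (GRCm38.p6). Classes were tested on simulated data for 750 assays, with 100% recovered. The simulated Ct values kept clear of the limit of 35, so that this checks the code and not calls near the limit. Software was matplotlib 3.10.9, scipy 1.17.1, numpy 2.4.6, pandas 2.3.3 and Python 3.11.15.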

Additional observations from a re-analysis of the deposited data

Results flagged for a closer look

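The U6 wells to which differences on card A were set hold a well that stands apart in each medium. In conditioned media 1 well had a Ct of 19.893 beside 3 between 21.14 and 21.31, and in blank media 1 well had a Ct of 20.197 beside 3 between 26.3 and 27.1. Each gap was a large part of the whole range of the 4 wells, 0.881 and 0.873 of it, above the 95% critical value of a Dixon test for 4 values, which chance exceeds in about 1 of 20 groups. They are wells of 1 sample and not separate samples. The difference of U6 between media on card A was -4.08 cycles with all wells and -5.34 cycles without these 2, and the difference of miR-125b relative to it went from -3.01 to -1.75 cycles.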

How the results depend on the processing

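At a Ct limit of 32, 1 member, miR-125a-5p, was detected in conditioned media and 1 in conditioned media only. With any determined Ct, with minor-arm assays or with rat-named assays counted, 1 assay was detected in blank media, namely miR-125b, miR-99b# and rno-miR-99a# in turn. The other changes of limit or assay set left each count of members within 1.5 times. The difference of miR-125b was -3.01 cycles relative to the mean of U6, -1.99 relative to its median and -1.75 without outlying wells, a choice made after seeing the data, so that it passed 5 cycles only as deposited or centred on the card median. The difference of miR-99b# reversed to 3.97, 3.86 and 3.97 cycles under the same references. That of rno-miR-99a# rose to 8.78, 8.67 and 8.78. The share of assays with an earlier Ct became 47.1% for miR-125a-5p, 78.8% for miR-125b and 86.5% for miR-99a among assays detected in conditioned media only, and 94.6% for miR-99a on its own card. The cause of these changes is in the wells and assays counted or the reference subtracted. No paired analysis was possible because there was 1 sample per condition, which also allowed no replicate to be left out.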

Other observations

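The miR-10 sequences, which resemble the miR-99/100 family over most of their length and are encoded within the Hox clusters, had 5 mouse assays. Their seed, ACCCUGU, is shared by miR-10a-5p and miR-10b-5p and by no other mature miRNA of the RefSeq table, and differs from that of the members. miR-10a, miR-10a#, miR-10b# and the card A assay of miR-10b were undetermined in both samples. The card B assay of miR-10b had a Ct of 35.6 in conditioned media, beyond the limit of 35, and was undetermined in blank media.

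Among the small RNA controls other than U6, snoRNA202 had a Ct of 28.5 and 29.8 on cards A and B in conditioned media, snoRNA135 of 33.0 and 29.3, and U87 of 32.7 on card A, and none of them had a Ct in blank media. Y1 had a Ct only with embryos and only on card B, at 15.5, before the earliest U6 well at 18.99. On card A it was undetermined in the same sample, and whether so early a Ct stands for template was not tested. The plant sequence miR159a was undetermined in all wells.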
